A study of Mus musculus with 20 samples.

Results

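Cdkn2a-silent tumours were compared with Cdkn2a-expressing tumours among 20 mouse sarcoma libraries. The libraries were split by their own Cdkn2a level in CPM (gene counts relative to the library total, scaled by TMM factors): the silent libraries were chosen by that value alone. Of 20 libraries, 3 lay under 5 CPM and are called silent, and 17 lay at 5 CPM or more and are called expressing. The silent libraries were primary tumour 4, primary tumour 6 and metastasis 2-3, the metastasis numbered 3 of matched set 2. The expressing libraries were primary tumours 1, 2, 3 and 5 and 13 lung metastases. Each silent library came from another set, and each of those 3 sets also held expressing libraries.

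Total RNA was sequenced from 6 primary tumours and 14 lung metastases that the labels match with them, in a study whose title names Neat1, a long non-coding RNA, with sarcoma metastasis and splicing. All 20 libraries carry the same labels of genotype (a mixed background) and source (tumour tissue of mouse), with no allele, treatment, age, sex or site given. The labels do not tell animals apart, and a set may come from 1 animal. P-values therefore measure only the spread between these samples, which may be technical. Library totals ran from 20603620 to 36824370 counts, and all tests below come from edgeR's quasi-likelihood fit over 19980 genes with tumour type (primary or metastasis) as a covariate, the Benjamini-Hochberg adjusted p over all of them and a threshold of 0.05. "Rose" and "fell" below mean higher or lower in silent libraries past that threshold.

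Cdkn2a codes for a pair of unrelated tumour suppressors read from separate promoters and joined to shared exons in different frames. p16Ink4a blocks the cyclin D kinases Cdk4 and Cdk6 and so keeps the retinoblastoma protein active, and p19Arf binds Mdm2 and so protects p53. The neighbouring Cdkn2b codes for p15Ink4b, a close relative of p16Ink4a. The locus is held down by Polycomb proteins in most normal tissue, is switched on by oncogenes and during senescence, and is often lost or silenced in tumours, sarcomas included. Gene-level counts add the p16Ink4a and p19Arf transcripts, so which of them each library held was not measured.

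The 3 promoters of the locus are shown because Cdkn2a defined the silent libraries and Cdkn2b, which the split did not use, fell with it. Sequences are from RefSeq on GRCm38.p6 (mm10), minus strand, 5′ to 3′, the 250 bases before each RefSeq transcript start, with every CpG in capitals.
Cdkn2a distal promoter (p19Arf), chr4:89294620-89294869: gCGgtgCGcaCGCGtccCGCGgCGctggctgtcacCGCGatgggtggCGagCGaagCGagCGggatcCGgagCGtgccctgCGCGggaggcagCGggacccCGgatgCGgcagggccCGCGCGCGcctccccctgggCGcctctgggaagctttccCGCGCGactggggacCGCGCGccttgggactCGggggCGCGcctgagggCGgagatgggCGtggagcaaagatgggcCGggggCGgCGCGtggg
Cdkn2a proximal promoter (p16Ink4a), chr4:89282193-89282442: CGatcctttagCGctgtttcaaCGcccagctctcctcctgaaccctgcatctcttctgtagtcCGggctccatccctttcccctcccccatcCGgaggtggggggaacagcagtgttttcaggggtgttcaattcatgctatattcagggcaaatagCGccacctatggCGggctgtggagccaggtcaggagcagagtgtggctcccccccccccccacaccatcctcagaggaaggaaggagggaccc
Cdkn2b promoter (p15Ink4b), chr4:89311033-89311282: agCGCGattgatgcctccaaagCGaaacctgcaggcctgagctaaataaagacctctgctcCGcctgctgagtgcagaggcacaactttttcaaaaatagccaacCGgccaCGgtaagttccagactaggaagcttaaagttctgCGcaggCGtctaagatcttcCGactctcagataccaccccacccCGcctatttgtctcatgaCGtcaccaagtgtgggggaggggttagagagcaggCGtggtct
The motif searched was CG, which reads the same on both strands. The p19Arf promoter held 40 CpGs, a count reached by 1.31% of 32851 RefSeq promoters cut to the same length. The p16Ink4a promoter held 7, a count reached by 46.3% of promoters, and the Cdkn2b promoter held 12, reached by 33.5%. CpG density describes the sequence only, and methylation was not measured here.

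The 3 silent libraries differed from each other in more than Cdkn2a. Across the 19980 genes, log2 CPM of primary tumours 4 and 6 had a Pearson r of 0.879, of metastasis 2-3 and primary tumour 6 0.798, and of metastasis 2-3 and primary tumour 4 0.716. Primary tumours 4 and 6 held few counts of immune and vascular genes, while metastasis 2-3 held hepatocyte genes, and both are given with the marker lists below. The library labelled primary tumour 4 also stood apart from metastasis 4-1, labelled as matched with it, on sex-linked genes. Xist, which silences 1 X chromosome in female cells, read 5762 CPM in primary tumour 4 and 1.65 in metastasis 4-1, while Ddx3y of the Y chromosome read 0.406 and 206.7 CPM in them. A list of X silencing and Y-linked genes that includes Xist summed to 42.3 to 505 CPM in the expressing libraries. None of them thus reached the Xist level of primary tumour 4. Across genes, primary tumour 4 correlated with metastasis 4-1 at 0.850, within its range of 0.684 to 0.880 with all expressing libraries. Counts over all genes are therefore given with and without each silent library, and counts of the lists where they moved.

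Cdkn2a itself made the split, so its values are a description. It read 0.152 CPM in primary tumour 4 from 3 counts (exact 95% Poisson interval 0.0314 to 0.445, counting error only), 0.824 CPM in primary tumour 6 from 25 counts (0.534 to 1.22) and 3.11 CPM in metastasis 2-3 from 89 counts (2.50 to 3.83). The expressing libraries ran from 20.4 through a median of 208.4 to 450.9 CPM. No library lay between 3.11 and 20.4 CPM, and the lowest expressing values after 20.4 in metastasis 3-2 were 33.2 in metastasis 4-1 and 104.5 in metastasis 3-1.

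Cdkn2b, whose level the split did not use, fell with Cdkn2a. It read 0.0507 CPM in primary tumour 4 (1 count), 0.330 in primary tumour 6 (10 counts) and 1.29 in metastasis 2-3 (37 counts), and from 17.6 through 84.2 to 114.8 CPM in the expressing libraries. The silent libraries lay below every expressing one, with a log2 fold change of -7.11 (SE 0.707, adjusted p 5.35e-05), the smallest p of all genes that fell. The call was made in all 32 of 32 alternative analyses. Among the alternatives of every gene is a split at 10 CPM, which gave the same groups and so could not differ. Cdkn2b did not follow Cdkn2a among the lowest expressing libraries: metastases 3-2 and 4-1, the lowest in Cdkn2a, read 74.9 and 114.8 CPM of Cdkn2b, and metastasis 3-1 had the lowest Cdkn2b. The 2 genes lie 11.646 kb apart and share similar exons, so a few reads of one could be counted for the other.

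**Figure D1:**
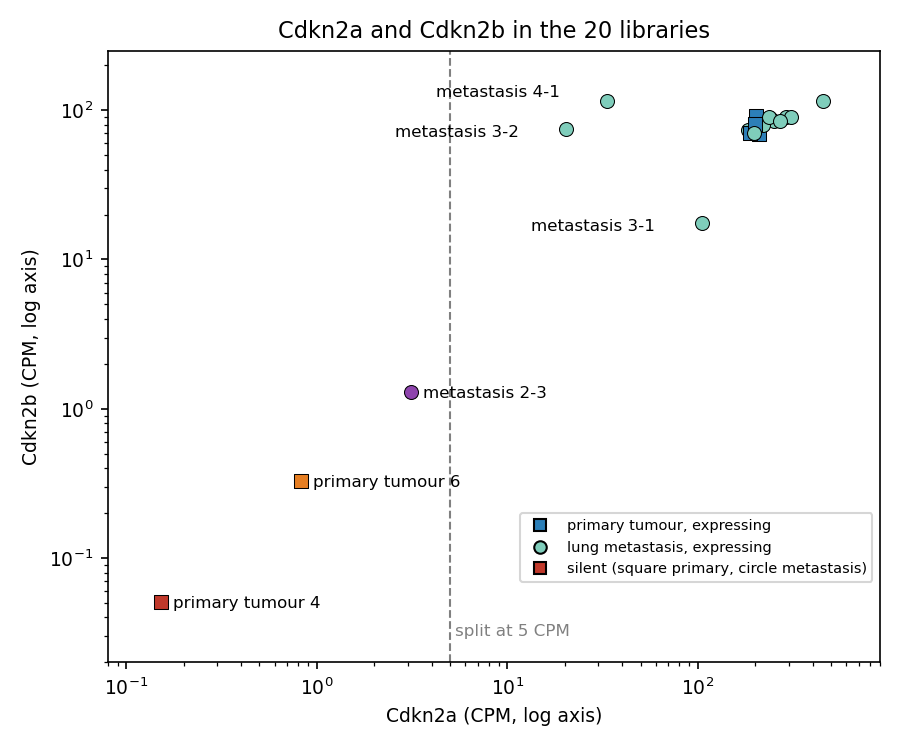
Cdkn2a (x axis) and Cdkn2b (y axis) in each of the 20 libraries, in CPM on log axes, with silent and expressing libraries marked. The 3 silent libraries lie at the lower left, at most 3.11 CPM of Cdkn2a and 1.29 CPM of Cdkn2b, and all 17 expressing libraries lie above 17 CPM of both.

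Low counts reached past Cdkn2a on the side of Cdkn2b. There, the transcript Gm12609 (chr4:89381957-89399880) read 0, 0.0989 and 0.105 CPM in primary tumour 4, primary tumour 6 and metastasis 2-3 against 1.32 to 4.37 in expressing libraries (log2 fold change -4.60, SE 0.633, adjusted p 0.000881). It and the next 2 transcripts named here are no protein-coding genes and were chosen after their values were seen. Beyond it, Gm12610 (chr4:89421848-89463487) lay 2.03 log2 units under the expressing median in primary tumour 6 and 4.76 under it in metastasis 2-3, but 0.26 above it in primary tumour 4 (adjusted p 0.43). On the side of Cdkn2a, Gm12606 (chr4:89235699-89273403), which ends 1.068 kb from it, read 19.2 and 24.6 CPM in primary tumours 4 and 6, within the expressing range of 1.68 to 26.0, and 0.07 CPM in metastasis 2-3. The stretch with low counts thus differed between the 3 libraries, and only Cdkn2a, Cdkn2b and Gm12609 were below every expressing library in all of them. Deletion and silencing of the locus cannot be told apart from these counts.

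Protein-coding neighbours were expressed. Dmrta1, a transcription factor gene 384.783 kb from Cdkn2a (chr4:89679436-89694772), read 36.8, 29.9 and 32.3 CPM in primary tumour 4, primary tumour 6 and metastasis 2-3, against 2.63, 7.27 and 16.5 as the lowest, median and highest expressing values. The silent libraries lay above all 17, with a log2 fold change of 2.38 (SE 0.381, adjusted p 0.00223), called in 30 of 32 alternatives. Mtap, the methionine salvage enzyme often deleted together with CDKN2A in human tumours, read 95.9 CPM in primary tumour 4, next to the lowest expressing value of 96.1, but 405 and 398 CPM in primary tumour 6 and metastasis 2-3, above the highest of 265. Its log2 fold change of 1.01 (SE 0.310) did not pass (adjusted p 0.0585), and reached 1.42 (adjusted p 0.00496) without primary tumour 4. Klhl9 (adjusted p 0.558), Focad (0.851) and Hacd4 (0.0960), further out on the same side, did not pass either.

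**Figure D2:**
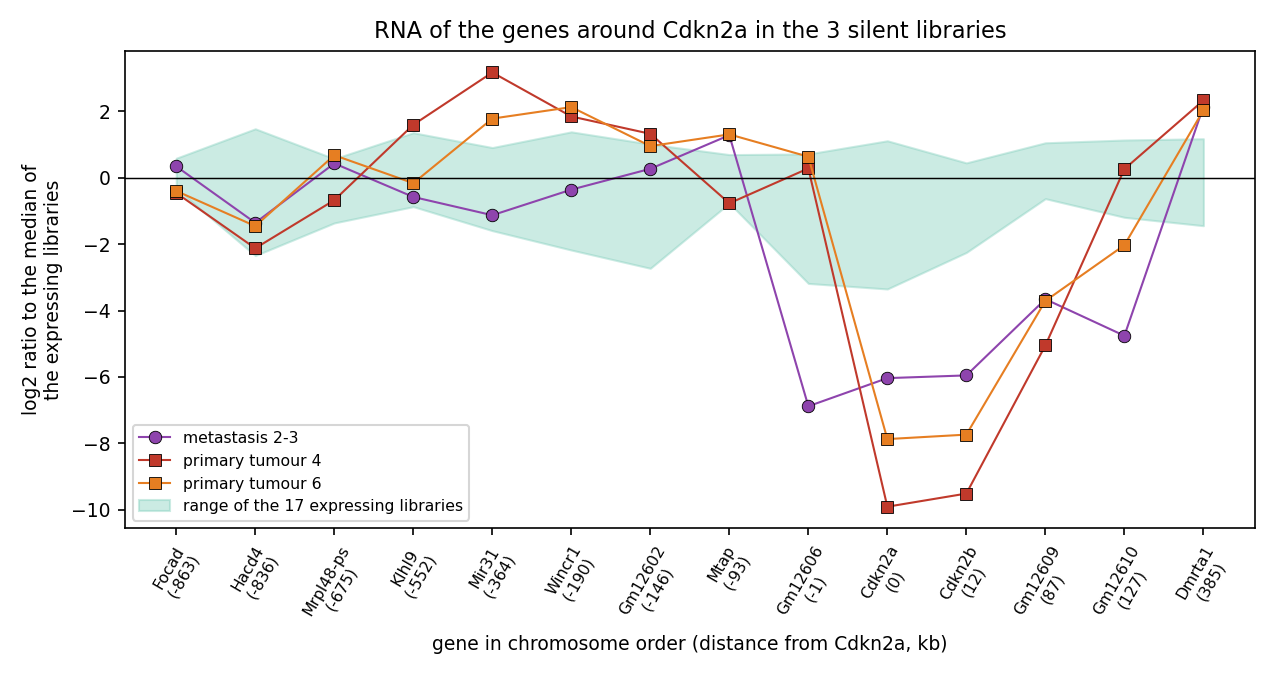
Transcripts around Cdkn2a in order of position (x axis), as the log2 ratio of each silent library to the median of the 17 expressing libraries (y axis), with the range of the expressing libraries shaded. Cdkn2a, Cdkn2b and Gm12609 lie below the range in all 3 silent libraries, and Dmrta1 lies above it at 2.03 to 2.33.

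Across all genes, 571 rose and 558 fell, 5.65% of the 19980 tested (2.86% and 2.79%), with Cdkn2a left out. With the matched set as a block, the counts were 273 and 315, of which 210 and 269 were also called without it. Another measure asks whether the 3 silent libraries lie outside the range of the 17 expressing ones: 127 genes (0.636%) lay above and 362 (1.81%) below, 2.45% in all. The counts depended on single libraries: 477 rose and 169 fell without primary tumour 4, 775 and 223 without primary tumour 6, and 2961 and 3473 without metastasis 2-3. Called with every silent library left out in turn were 81 rises and 113 falls, and 44 and 89 of these also passed with the block and had all 3 silent libraries outside the expressing range. Leaving out set 1, which holds no silent library, gave the lowest counts, 75 and 86, so calls lost there are not listed gene by gene.

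Ptgs2 and Ptger4, of prostaglandin signalling, moved in opposite directions. Ptgs2 (cyclooxygenase 2), the inducible enzyme that starts prostaglandin synthesis, read 1147, 300.1 and 368 CPM in primary tumour 4, primary tumour 6 and metastasis 2-3, against 5.5, 20.6 and 101.9 as the lowest, median and highest expressing values. All silent libraries lay above all expressing ones, with a log2 fold change of 3.74 (SE 0.554, adjusted p 0.00155), called in 31 of 32 alternatives. Ptger4, the prostaglandin E2 receptor EP4, read 7.30, 5.21 and 7.90 CPM in the silent libraries and 18.2, 26.9 and 46.9 in the expressing, without overlap (log2 fold change -1.99, SE 0.327, adjusted p 0.00245). Of 18 tested genes of prostaglandin synthesis, transport and reception, a list drawn up after values were seen, 1 rose and 2 fell, with a median log2 fold change of -0.53 against -0.02 over all genes. The other fall was Tbxas1, thromboxane synthase, known from macrophages and platelets. It read 0.0507, 0.132 and 2.24 CPM in the silent libraries against 2.85 to 36.0 (log2 fold change -4.5, adjusted p 0.0258), and its call was lost without primary tumour 4 (adjusted p 0.0803) or primary tumour 6 (0.0710).

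Npr3 and Tslp also rose in all fits without 1 silent library. Npr3, the clearance receptor for natriuretic peptides, read 209.8, 120.1 and 243.5 CPM in primary tumour 4, primary tumour 6 and metastasis 2-3 against 4.56, 8.34 and 66.4 (log2 fold change 4.03, SE 0.656, adjusted p 0.00240). Tslp, an epithelial and stromal cytokine, read 111.2, 11.0 and 146.5 CPM against 1.35, 3.85 and 17.9, so that primary tumour 6 lay inside the expressing range (log2 fold change 4.23, SE 0.484, adjusted p 0.000270). Both were also called without each set. The epidermal growth factor receptor ligands Areg and Ereg rose as well (adjusted p 0.0155 and 0.0460). Ereg read 211, 119.9 and 185 CPM in the silent libraries against 17.2, 54.6 and 126 in the expressing. Areg rested on primary tumour 4, at 95.2 CPM against at most 24.2 in any other library, and was at 2.29 without it (adjusted p 0.0874). Ereg lost its call without primary tumour 4 (log2 fold change 1.28, adjusted p 0.137) and without metastasis 2-3 (1.31, 0.0773).

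Cpox, Acot2, Cyb5r1, Scp2 and Atf6 were among the 10 rises of smallest p. Cpox, an enzyme of haem synthesis, read 206, 53.6 and 34.3 CPM against 5.94, 10.3 and 18.5, above every expressing library, with a log2 fold change of 2.58 (SE 0.356, adjusted p 0.000881), and was called in 32 of 32 alternatives. The mitochondrial acyl-CoA thioesterase gene Acot2 read 85.0, 40.2 and 13.7 CPM against 2.51, 4.84 and 7.55 (log2 fold change 2.78, SE 0.411, adjusted p 0.00155). Scp2, which carries sterols and acts in peroxisomal lipid oxidation, read 50.6, 65.8 and 153.9 CPM against 20.6, 31.8 and 50.5, with primary tumour 4 at the edge of the expressing range (log2 fold change 1.51, adjusted p 0.00195). Its call was lost without set 2 (0.91, adjusted p 0.0767). Atf6, a sensor of unfolded protein in the endoplasmic reticulum, read 341.4, 244.7 and 171.1 CPM against 74.2, 93.9 and 130.1, again without overlap (log2 fold change 1.22, SE 0.188, adjusted p 0.00195). Cyb5r1, a reductase gene, rose with a log2 fold change of 1.53 (adjusted p 0.000585), with metastasis 2-3 at 91.8 CPM under the highest expressing value of 100.01.

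Several genes of the most stable group, chosen here after their values were seen, also had every silent library above every expressing one. Stc2, a secreted glycoprotein induced by stress of the endoplasmic reticulum, read 59.5, 43.3 and 29.0 CPM in primary tumour 4, primary tumour 6 and metastasis 2-3 against 2.67 to 16.7. Gpt2, the mitochondrial alanine aminotransferase, read 258, 216 and 254 CPM against 15.2 to 98.5. Insig2, which holds back sterol synthesis, read 91.3, 90.6 and 90.9 CPM against 21.5 to 74.1, and Stard5, a sterol carrier, 52.1, 47.9 and 24.5 against 7.0 to 20.1. Derl1, of the pathway that removes misfolded protein, rose by 0.74 log2 units, from 81.8 to 137.7 CPM in expressing libraries to 172.6 to 199.3 in silent ones. No list used here covers the pathways of these 5 genes.

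**Figure D3:**
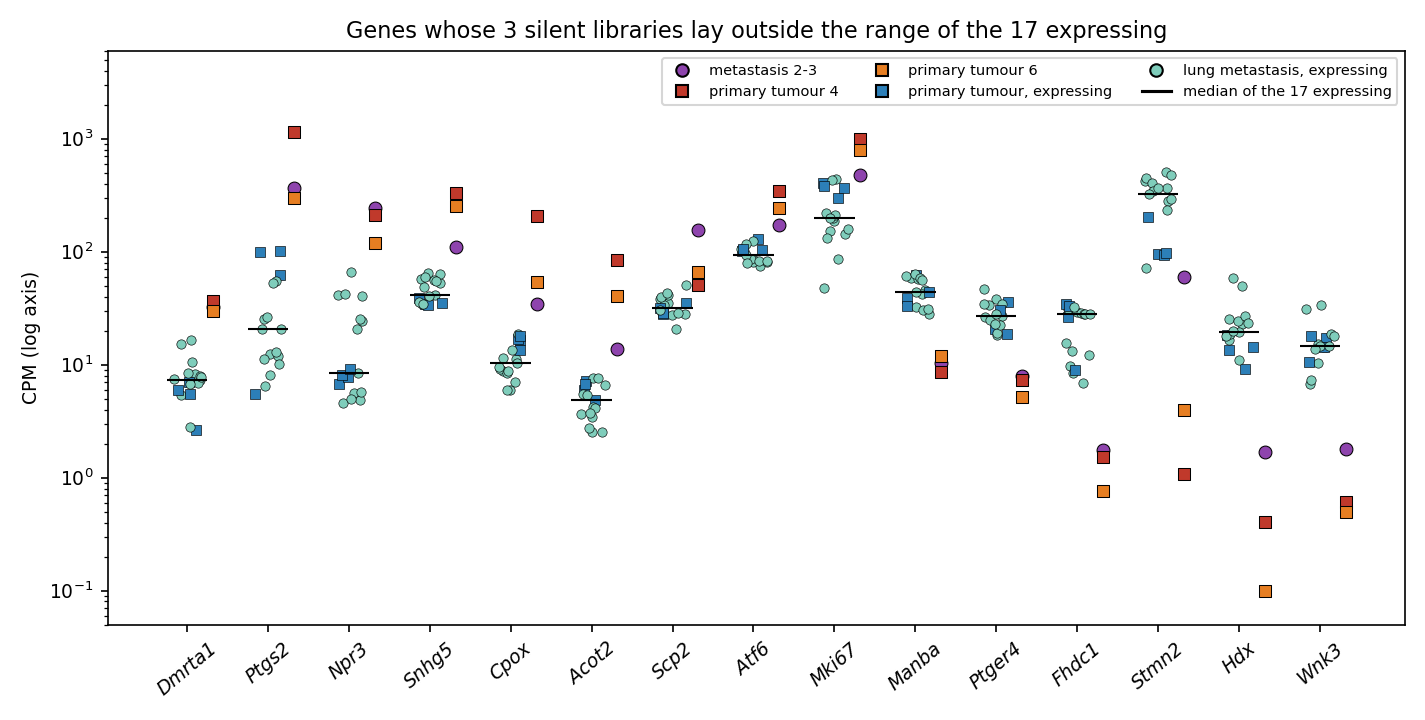
CPM (log axis) of genes with all 3 silent libraries outside the range of the 17 expressing libraries, with 1 point per library and silent libraries marked. Ptgs2, Npr3, Cpox and Atf6 are among those above the range, and Manba, Ptger4 and Hdx among those below it.

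The falls of smallest p after Cdkn2b were of varied function. Manba, the lysosomal beta-mannosidase, read 8.67, 11.9 and 10.4 CPM in primary tumour 4, primary tumour 6 and metastasis 2-3 against 28.2, 43.6 and 63.3 in the expressing libraries, close values in all 3 (log2 fold change -2.13, SE 0.325, adjusted p 0.00190). Hdx, a homeobox gene of the X chromosome, read 0.406, 0.0989 and 1.68 CPM against 9.17, 19.4 and 57.9 (log2 fold change -4.80, SE 0.645, adjusted p 0.000853). Wnk3, a kinase gene also on the X chromosome, read 0.608, 0.495 and 1.78 CPM against 6.72 to 33.6 (log2 fold change -3.98, adjusted p 0.00113). Fhdc1, a formin gene, read 1.52, 0.759 and 1.75 CPM against 6.84 to 34.2, and Tll1, a tolloid-like protease of the extracellular matrix, 0.152, 0.462 and 0.454 against 2.34 to 14.5. Stmn2, which regulates microtubules in neurons, read 1.06, 3.99 and 60 CPM against 71.1, 323.7 and 506.5 (log2 fold change -3.83, adjusted p 0.00468). None of these 6 overlapped between the groups. Each kept its call without every silent library and without every set.

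Other large falls were of genes known from immune, vascular and stromal cells. Mgl2, a lectin of macrophages and dendritic cells, read 0.0507, 0.231 and 4.02 CPM against 11.5, 39.6 and 72.5, and was called in 32 of 32 alternatives (log2 fold change -4.74, adjusted p 0.00223). The macrophage genes Retnla, Clec12a and Gpr34, the lysozyme gene Lyz1 (a near copy of Lyz2, so its reads may be split), the elastic fibre genes Mfap4 and Mfap5 and the endothelial Mmrn1 were among the 10 largest falls, with log2 fold changes from -5.20 for Gpr34 to -7.21 for Mmrn1. Mmrn1 read at most 0.101 CPM in silent libraries and at least 3.14 in expressing ones, and kept its call without each silent library. The other 6 lost theirs without primary tumour 4 (adjusted p 0.0594 for Mfap5 to 0.167 for Gpr34), and all of them but Retnla and Mfap5 also without primary tumour 6 (0.0632 to 0.117). In the fit with the immune and endothelial index as a covariate, the falls dropped from 558 to 88 and the rises from 571 to 350. That index is the mean log2 CPM of the T and natural killer cell, macrophage and endothelial lists. Falls of those genes were bound to shrink in that fit, so it cannot measure the part of cell content. The part of cell content in single falls was not tested, and in bulk tissue fewer cells of a type and less RNA per cell cannot be told apart.

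No gene of the Rb arm other than CDK inhibitors passed the test. Of 21 tested cyclins, kinases, pocket proteins and E2F factors, 0 rose and 0 fell (edgeR, adjusted p under 0.05), with a median log2 fold change of 0.12. At an unadjusted p under 0.05 there were 1 rise and 2 falls, DESeq2 called 1 and 1, and voom 0 and 1. Without metastasis 2-3 the edgeR count was 1 rise and 4 falls. Cdk4 read 131, 372 and 229 CPM in primary tumour 4, primary tumour 6 and metastasis 2-3 against 72.0, 213 and 306 in the expressing libraries (adjusted p 0.827), and Cdk6 573, 97.1 and 168 against 148, 167 and 351 (0.782). Neither kinase had a common direction in the silent libraries: Cdk6 lay above the expressing range in primary tumour 4 and below it in primary tumour 6. Ccnd1, a D cyclin gene, read 906, 788 and 780 CPM, inside the range of 529 to 1136 (log2 fold change -0.20, adjusted p 0.610). The log2 fold change was -1.53 for Ccnd2 (adjusted p 0.0652), 1.05 for Rb1 (0.105), -0.20 for E2f1 (0.851) and -0.71 for Ccne1 (0.347). Of 32 alternatives, Ccnd2 was called in 5, Rb1 in 4 and Ccne1 in 6. Among 7 tested CDK inhibitors other than Cdkn2a, Cdkn2b fell and Cdkn1b rose. Cdkn1b, the gene of p27, read 435.5, 154.8 and 108.6 CPM against 43.5, 67.3 and 125.1 (log2 fold change 1.56, SE 0.367, adjusted p 0.0199), and its call was lost without primary tumour 4 (0.90, adjusted p 0.157).

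The number of p53 arm genes called depended on the libraries. Of 16 genes of p53 and its controllers 2 rose and 0 fell, and of 49 tested p53 targets 4 rose and 0 fell, with median log2 fold changes of 0.45 and 0.21, where 2.86% of all genes rose and 2.79% fell. Without primary tumour 4 the rises were 0 and 2, and without metastasis 2-3 they were 6 and 10, with 0 and 5 falls. DESeq2 called 6 and 11 higher and 1 and 2 lower. Trp53 read 9.89, 10.3 and 6.15 CPM in primary tumour 4, primary tumour 6 and metastasis 2-3 against 3.15, 9.41 and 15.7 (log2 fold change -0.42, adjusted p 0.474), so the silent libraries lay within the expressing range. Mdm2, the ubiquitin ligase that removes p53 and itself a p53 target, read 241.7, 101.4 and 91.6 CPM against 56.8, 74.2 and 100.3 (log2 fold change 0.88, SE 0.255, adjusted p 0.0472). Without primary tumour 4 its log2 fold change was 0.41 (adjusted p 0.372). The deubiquitinase gene Usp7, which acts on Mdm2 and p53, rose by 0.69 (adjusted p 0.0483, and 0.147 without primary tumour 4).

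Among p53 targets, Slc19a2, a thiamine transporter gene, was the only one with all 3 silent libraries above all expressing ones, at 77.6, 23.2 and 20.4 CPM against 8.70, 10.2 and 17.9 (log2 fold change 1.45, adjusted p 0.00996). Psrc1, a spindle gene, read 1.83, 16.1 and 4.61 CPM against 0.422, 0.898 and 2.57 (log2 fold change 2.28, adjusted p 0.0122), and the long non-coding RNA gene Trp53cor1 1.67, 4.81 and 5.07 against 0.390, 0.870 and 2.38 (1.79, adjusted p 0.0146). Each of these calls was lost without 1 silent library: Slc19a2 without primary tumour 4 (0.85, adjusted p 0.0791), Psrc1 without primary tumour 6 (1.65, 0.0719) and Trp53cor1 without metastasis 2-3 (1.09, 0.142). Cdkn1a, the gene of the kinase inhibitor p21 and the best known p53 target, read 16.4 and 24.2 CPM in primary tumours 4 and 6, at the low end of the expressing range of 13.6 to 178.9, and 289 in metastasis 2-3, above it (log2 fold change 0.99, adjusted p 0.324). With metastasis 2-3 left out, 10 targets rose and 5 fell. The number of moved p53 targets thus depended on which silent libraries were counted.

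Genes of mitosis lay higher in silent tumours, although few passed the test. All 40 of 40 tested G2 and mitosis genes had a positive fitted log2 fold change, against 48.9% of all genes, and their median was 1.01. Their mean log2 CPM was 6.66 in primary tumour 4, 7.01 in primary tumour 6 and 6.32 in metastasis 2-3, all above the highest of the expressing libraries, 6.17. The proliferation antigen gene Mki67 read 998.5, 800.5 and 478 CPM against 47.9, 200.4 and 437.5 (adjusted p 0.0662), and the mitotic kinase gene Cdk1 145, 159 and 142 against 30.8, 89.4 and 130 (0.180). The centromere histone gene Cenpa was the third member with no overlap, at 60.4, 99.1 and 91.6 CPM against 11.4 to 59.2 (0.0673). None of these 3 of 40 members passed the test, and 0.636% of all genes had every silent library above every expressing one. Those called were the kinetochore genes Ndc80 (log2 fold change 1.86, adjusted p 0.0406) and Cenpe (1.79, 0.0491) and the spindle kinesin gene Kif23 (1.19, 0.0492). All 3 lost their call without primary tumour 4 (adjusted p 0.181, 0.134 and 0.139) or without primary tumour 6 (0.0571, 0.0968 and 0.0823). The list's count of rises was 16 without metastasis 2-3, 0 without primary tumour 4 and 0 with the matched set as a block. With the immune and endothelial index as a covariate it was 0, and the median was 0.28. Primary tumours 4 and 6 had the highest mitosis means. They also lay below all expressing libraries on the immune and endothelial indices given below, whose part in this was not tested.

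S phase genes did not share that pattern. Of 48 E2F targets and S phase genes 2 rose and 0 fell, 29 had a positive log2 fold change, and the median was 0.14. Dut, which keeps uracil out of DNA, rose by 1.04 (adjusted p 0.0208), and lost its call without primary tumour 4 (0.72, adjusted p 0.130). Mcm3, a subunit of the replicative helicase, read 36.5, 132 and 987 CPM in primary tumour 4, primary tumour 6 and metastasis 2-3 against 23.7, 85.7 and 229. Its log2 fold change of 1.96 (adjusted p 0.0380) came from metastasis 2-3 and turned to -0.40 (adjusted p 0.669) without it. Mcm3 lies in the stretch of chromosome 1 described below. Gins1 had no overlap, at 16.9, 11.9 and 13.3 CPM against 2.67 to 11.0, and did not pass (adjusted p 0.103).

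Lists of regulators and growth pathways held few calls. Of 43 Polycomb genes and other regulators of the locus 0 rose and 0 fell (edgeR), with a median of 0.01. At an unadjusted p under 0.05 there were 6 and 2, DESeq2 called 6 and 1 and voom 0, and without metastasis 2-3 the edgeR counts were 8 and 5. Bmi1, the Polycomb subunit whose loss derepresses Cdkn2a, read 496, 132 and 86.3 CPM in the silent libraries against 49.9, 64.6 and 189 (log2 fold change 1.53, adjusted p 0.0706), and Ezh2, the Polycomb methyltransferase, read 109, 72.7 and 88.2 against 24.2, 52.1 and 256 (adjusted p 0.727). Of 36 RAS and MAPK output genes 0 were called (unadjusted 4 up and 1 down, DESeq2 3 and 0, voom 0). Of 27 genes of the Myc family and its targets 0 were called (unadjusted 3 and 2, DESeq2 3 and 2, voom 0), with Myc at a log2 fold change of 0.36 (0.505). Of 33 tested secretory genes of senescence, Areg and Ereg rose and Timp2, an inhibitor of matrix proteases, fell (-1.67, adjusted p 0.0493), with a median of -0.70. Timp2 lost its call without primary tumour 4 (adjusted p 0.180) or primary tumour 6 (0.101). The counts of this list were 4 rises and 14 falls without metastasis 2-3 (median -1.95) and 0 and 0 without primary tumour 4. Among 34 receptor tyrosine kinases and ligands 0 rose and Pdgfd fell (-3.98, adjusted p 0.0419, and 0.141 without primary tumour 4), while without metastasis 2-3 the counts were 1 rise and 12 falls. Of the 12 genes of Neat1 and the paraspeckle, the nuclear body built on Neat1, only the core protein gene Pspc1 passed, rising by 1.02 (adjusted p 0.0204, and 0.0869 without primary tumour 4). Neat1 read 1367, 1316 and 1637 CPM against 322, 1185 and 4109 (log2 fold change 0.80, adjusted p 0.378), inside the expressing range in all 3 silent libraries.

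Marker lists of other cell types separated the silent primary tumours from the silent metastasis. The index of a list is the mean log2 CPM of its genes. The macrophage index was -0.43 in primary tumour 4, 0.68 in primary tumour 6 and 4.47 in metastasis 2-3, against 3.36, 6.09 and 6.71 as the lowest, median and highest expressing values. That of T and natural killer cells was -3.12, -3.25 and -1.74 against -2.17 to 1.59, and that of endothelium -1.24, -0.41 and 3.99 against 3.10 to 6.29. Primary tumours 4 and 6 thus lay below every expressing library on all 3 lists and metastasis 2-3 within the range. Summed levels did not follow: the macrophage sum was 8341, 11595 and 8079 CPM against 1293 to 12658, of which the secreted phosphoprotein gene Spp1, also made by tumour cells, gave 8146, 11247 and 6292. The endothelial sum was 1468, 1141 and 717 CPM against 376 to 4720, of which Esm1 gave 1343, 905 and 78.9. The sum over T and natural killer cell genes was 19.2, 9.04 and 18.5 CPM against 9.88 to 287.

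Defining markers were often at 0 in those tumours. Of 35 T and natural killer cell genes 24 had 0 counts in primary tumour 4, 23 in primary tumour 6 and 3 in metastasis 2-3. Cd3d, Ncr1 and Tbx21 were at 0 in all 3. These genes were low in expressing libraries too, with a median sum of 26.8 CPM over the list. Tbx21 ran there from 0 through a median of 0.129 to 0.978 CPM. Numbers of genes at 0 in the expressing libraries and over all genes are not given here, so these zeros are a description. Of 25 endothelial genes 10 were at 0 in primary tumour 4 (Kdr, Tie1 and Cldn5 among them), 1 (Erg) in primary tumour 6 and 0 in metastasis 2-3. Of 30 macrophage genes 6, 1 and 0 were at 0. Pecam1, the endothelial adhesion gene CD31 (chosen after its values were seen), read 0.152, 0.396 and 35.5 CPM against 32.2 to 443.8. Lyz2, the lysozyme gene of macrophages and neutrophils, read 3.25, 19.03 and 110.7 CPM against 130.7 to 3573 and fell (adjusted p 0.0321, and 0.102 without primary tumour 4).

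By the test, 11 of 34 T and natural killer cell genes fell and 0 rose (median log2 fold change -3.38), 2 of 30 macrophage genes fell (-3.14), and 1 of 25 endothelial genes rose and 1 fell (-2.63). Without metastasis 2-3 the falls were 31, 23 and 20. Without both silent primary tumours they were 0, 0 and 0, with medians of -1.24, -1.50 and -0.85. With the matched set as a block they were 5, 5 and 0. The endothelial rise was Esm1, endocan, at 1343, 905 and 78.9 CPM against 11.7, 30.2 and 181 (log2 fold change 2.58, adjusted p 0.0164, and 0.0514 without primary tumour 4). Of 19 B and plasma cell genes 2 fell, of 17 neutrophil genes 1, of 15 adipocyte genes 1, of 14 Schwann cell genes 1, and of 10 erythroid and 10 keratinocyte genes 0, with 0 rises in any. The falls of the first 4 lists were 13, 6, 10 and 6 without metastasis 2-3, and 0 in each without primary tumour 4 or without primary tumour 6. For the last pair, 6 and 2 genes were lower at an unadjusted p under 0.05, DESeq2 called 7 and 1 lower, and voom 0. Of 22 genes of MHC presentation 0 were called (median -1.22; 2 lower unadjusted, 1 by DESeq2 and 10 by voom), and without metastasis 2-3 1 rose and 15 fell (median -3.42). Of 40 interferon-stimulated genes only the transcription factor Irf1 fell (-1.88, adjusted p 0.0364, and 0.146 without primary tumour 4). The silent libraries differed among themselves on this list, with indices from 1.13 to 6.23, past both ends of the expressing range of 1.66 to 5.67. Its median log2 fold change was 0.09, and it was -1.66 without primary tumour 4 and 0.68 without primary tumour 6. The share of these falls that comes from the cells sampled was not tested. The index fit above cannot measure it, because 3 of these lists make up the index.

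Stromal genes followed in part. Of 18 smooth muscle and pericyte genes 4 fell and 0 rose: Myh11 (log2 fold change -5.08), Cnn1 (-5.37), Myocd (-5.09) and Rgs5 (-5.14), at 39.0 CPM or less in every silent library. The 4 calls were lost without primary tumour 4 or without primary tumour 6, and the list held 0 falls with the matched set as a block and 16 without metastasis 2-3. Collagen and matrix genes had a smaller shift, with indices of 4.58, 7.20 and 7.37 against 5.91 to 8.58, and 1 of 36 rose and 2 fell (3 and 9 without metastasis 2-3). Elastin (Eln) fell, with 0 counts in primary tumour 4 and 0.363 and 3.81 CPM in the others against 1.43 to 228 (log2 fold change -5.04, adjusted p 0.0143), as did periostin (Postn, -3.11, adjusted p 0.0431, lost without either silent primary tumour). The rise was Fbn2, fibrillin 2, at 391 CPM in primary tumour 6 and 225 in metastasis 2-3 against at most 40.1, but with 0 counts in primary tumour 4; it was not called without metastasis 2-3 (adjusted p 0.0903).

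Hepatocyte genes marked metastasis 2-3. This list was drawn up after values were seen. Its summed level was 24545.5 CPM in metastasis 2-3, against 19.2 and 64.1 in primary tumours 4 and 6 and 4.31 to 2169 in the expressing libraries, where the highest was metastasis 2-4 of the same set and the next was metastasis 4-1 at 43.1. Albumin (Alb) read 7501 CPM in metastasis 2-3, 893.5 in metastasis 2-4, and 0 in both silent primary tumours. Of 24 tested hepatocyte genes 16 rose and 0 fell, and without metastasis 2-3 0 rose and 0 fell. With the matched set as a block 1 rose. The labels name the sample as a lung metastasis, and its index of lung epithelium was 1.33, within the expressing range of -0.71 to 6.84. Of 35 lung epithelium genes and 40 mature skeletal muscle genes 0 were called (edgeR, adjusted p under 0.05). At an unadjusted p under 0.05, 1 lung gene was higher and 7 lower and 2 muscle genes were higher and 1 lower. DESeq2 called 1 lung gene higher and 6 lower and 1 muscle gene lower, and voom called 26 muscle genes lower. Muscle genes ranged widely, with indices of -1.19 and -2.43 in primary tumours 4 and 6, below all expressing libraries, and 5.52 in metastasis 2-3. Without metastasis 2-3, 38 of the 40 muscle genes fell (median log2 fold change -9.65), and 1 lung gene rose and 6 fell. Without primary tumours 4 and 6, 5 muscle genes rose.

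**Figure D4:**
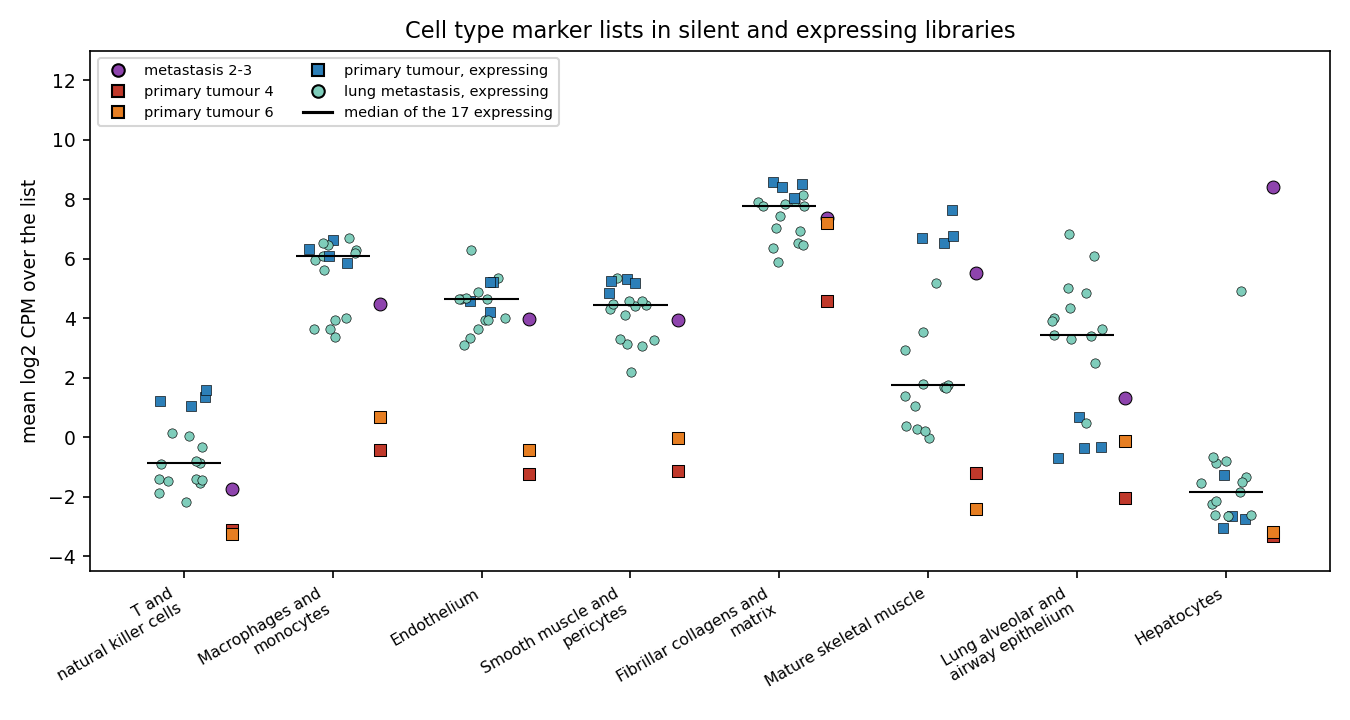
Index (mean log2 CPM, y axis) of marker lists in each library, with 1 point per library and the 3 silent libraries marked. Primary tumours 4 and 6 lie below all expressing libraries for macrophages, T and natural killer cells and endothelium, and metastasis 2-3 lies above all others for hepatocytes, at 8.42.

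Lineage factors gave no common identity. Of 30 myogenic and embryonic muscle genes 1 rose and 1 fell, against 2 and 11 without metastasis 2-3 (median -3.88). Ncam1, a neural and muscle adhesion gene, read 495, 358 and 375 CPM against 99.8, 244 and 332, above all expressing libraries (log2 fold change 0.95, adjusted p 0.0472, and 0.152 without primary tumour 4). The somite factor gene Meox1 fell (-4.44, adjusted p 0.0220, and 0.0623 without primary tumour 4). Myod1 read 0.152 and 0.033 CPM in primary tumours 4 and 6 and 126 in metastasis 2-3, and Myf5 597, 0.0989 and 157, so the muscle determination genes differed among the silent libraries themselves. Of 31 Hox genes only Hoxb7 fell, at 0.0699 CPM or less in silent libraries. Among 27 limb and mesenchyme patterning factors Meis2 (1.76, adjusted p 0.0250) and Msx1 (2.57, 0.0412) rose and Tbx4 fell (-4.24, 0.0431). Meis2 lost its call without primary tumour 4 (adjusted p 0.277), Msx1 without metastasis 2-3 (0.121) or primary tumour 6 (0.0955), and Tbx4 without primary tumour 4 (0.137) or primary tumour 6 (0.105).

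Host genes of small nucleolar RNAs held several rises, in a list drawn up after values were seen. Of 17 tested, 7 rose (Snhg1, Snhg5, Snhg6, Snhg12, Snhg15, Gas5 and Zfas1) and 1 fell (Snhg11), with a median log2 fold change of 1.28, where 2.86% of all genes rose. These spliced RNAs carry snoRNAs in their introns, which guide modification of ribosomal RNA, and many carry the sequence element of ribosomal protein genes at their start. Snhg5 read 332.9, 253.0 and 110.1 CPM in primary tumour 4, primary tumour 6 and metastasis 2-3 against 34.0, 41.3 and 65.2, above all expressing libraries (log2 fold change 2.45, SE 0.300, adjusted p 0.000492). It was called without each silent library and each set. Gas5 read 421, 326 and 72.8 CPM against 41.4 to 145, and Snhg1 906, 500.02 and 92.7 against 41.8 to 202, so metastasis 2-3 lay inside the expressing range for both. Gas5, Snhg12 and Snhg15 lost their call without primary tumour 4 (adjusted p 0.188, 0.0791 and 0.184) or primary tumour 6 (0.0790, 0.129 and 0.0929). The count of rises was 10 without metastasis 2-3, 4 without primary tumour 4, 4 without primary tumour 6, 2 without both and 2 with the matched set as a block. With the immune and endothelial index as a covariate it was 1, with a median of 0.05. Because the strand setting of the counting is not given in the sources used here, reads of overlapping genes cannot be told apart.

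Imprinted genes, a list also drawn up after values were seen, held 5 falls. Of 26 tested 5 fell and 0 rose: Meg3, Rian and Mirg, maternal non-coding RNAs of 1 cluster on chromosome 12, and the paternal genes Ndn and Nnat. Rian read 0.456, 0.989 and 2.87 CPM in primary tumour 4, primary tumour 6 and metastasis 2-3 against 4.71, 27.5 and 176 (log2 fold change -5.04, adjusted p 0.0229), and Meg3 0.0507, 0.297 and 2.34 against 4.70, 10.9 and 67.0 (-4.35, 0.0337). Neither overlapped between the groups. Both calls were lost without primary tumour 4 (adjusted p 0.0792 and 0.0959) and without primary tumour 6 (0.0684 and 0.0929), as were those of Mirg (0.111 and 0.0856) and Nnat (0.125 and 0.106). Without metastasis 2-3 the list held 11 falls (median -4.41), without primary tumour 4 it held 1 rise and 0 falls, and without primary tumour 6 1 and 1. Ndn read 0.0507, 2.34 and 0.384 CPM against 3.25 to 163 (adjusted p 0.0381, and 0.122 without primary tumour 4). The growth factor gene Igf2 lay below every expressing library, at 0.761, 0.0660 and 3.77 CPM against 4.38 to 721, and did not pass (adjusted p 0.0787).

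Rises clustered at the start of chromosome 1, a region chosen after its values were seen. Of 110 tested genes in its first 30 Mb, 33 rose (30%) and 2 fell, where 2.86% of all genes rose and 2.79% fell. The 3 windows of 10 Mb there ranked 1 to 3 of 251 windows by the share of rises (34.8%, 30% and 27.7%). The median log2 ratio to the expressing median over 44 well expressed genes was 2.44 in metastasis 2-3, 1.35 in primary tumour 4 and 0.00103 in primary tumour 6, so the third silent library did not share it. In metastasis 2-3, 40 of the 44 genes were at least 2-fold above the expressing median, and its window medians were 2.43, 2.62 and 2.36, then -0.05 from 30 to 40 Mb. In primary tumour 4 they were 2.08, 1.14 and -0.13. High window medians of that library were not confined to this stretch, with 1.51 from 50 to 60 Mb and 1.60 from 100 to 110 Mb of chromosome 1. Of the expressing libraries, metastasis 3-1 (1.09), metastasis 4-1 (0.91) and metastasis 3-2 (0.82) also stood high, and the other 14 ran from -0.30 to 0.31. Those 3 are also the expressing libraries with the lowest Cdkn2a. DNA copy number was not measured here.

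Genes in that stretch made up part of the most significant rises. Tcea1, a transcription elongation factor gene (chr1:4857814-4897909), read 219.6, 49.4 and 164.4 CPM in primary tumour 4, primary tumour 6 and metastasis 2-3 against 19.6, 23.8 and 57.0 (log2 fold change 2.32, SE 0.351, adjusted p 0.00190), and Snhg6 (chr1:9941959-9944118) 129.0, 33.1 and 130.0 against 12.3, 18.6 and 45.8 (2.32, SE 0.352, adjusted p 0.00190). Both were called in 32 of 32 alternatives, yet primary tumour 6 lay inside the expressing range for both. Others, named after their values were seen, were the autophagy gene Rb1cc1 (1.78, adjusted p 0.00827), the ribosomal protein gene Rpl7 (1.69, 0.00955), the signalosome subunit gene Cops5 (1.35, 0.0194) and the telomere protein gene Terf1 (2.02, 0.0166). Rb1cc1 kept its call without each silent library, while Rpl7 and Cops5 lost theirs without metastasis 2-3 (adjusted p 0.498 and 0.880) and Terf1 without primary tumour 4 (0.0744). Without metastasis 2-3, 19 of the 110 genes still rose, and 6 of the 33 were called with every silent library left out in turn.

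**Figure D5:**
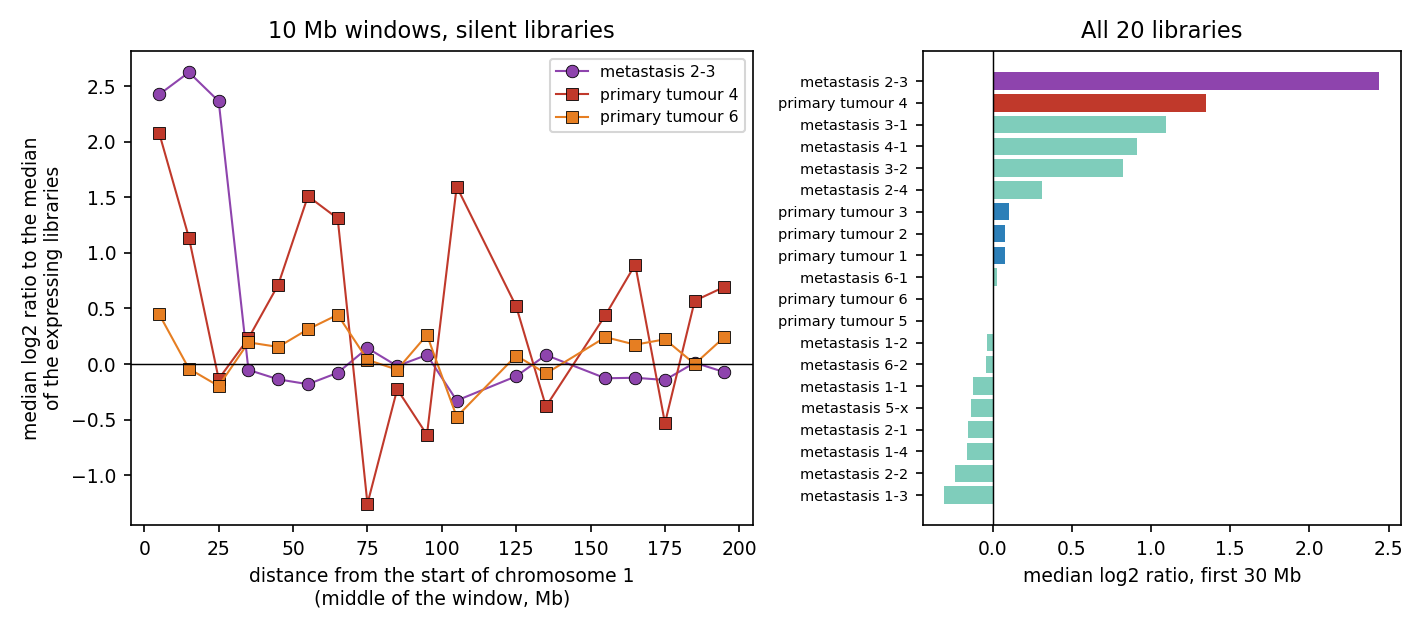
Left, median log2 ratio to the expressing median in windows along chromosome 1, by distance from its start in Mb (x axis), for the silent libraries. Right, the median over the first 30 Mb in each of the 20 libraries. Metastasis 2-3 stays near 2.4 up to 30 Mb and then returns to about 0, primary tumour 4 is high over the first 20 Mb, and primary tumour 6 stays near 0.

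The difference between the sides was larger or smaller in metastases than in primary tumours for 2966 genes (14.8%; 2291 higher and 675 lower in metastases, edgeR interaction term, adjusted p under 0.05). This test rests on 1 silent metastasis, so it cannot be told apart from what was particular to that library. For Cdkn2b, the log2 difference was -8.51 in primary tumours and -5.82 in metastases (interaction 2.57, adjusted p 0.0395), both far below the expressing range. Cdkn1a differed by -0.89 in primary tumours and 2.70 in metastases (3.68, adjusted p 0.0389), and the cyclin gene Ccne1 by -2.49 and 0.59 (2.85, adjusted p 0.00789).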

How the data were processed

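Per the submitters' processing notes, reads were processed with Trimmomatic 0.36, STAR (version string 5.5.4b) and HTSeq on mm10. The authors deposited whole-number counts of 51826 genes in 20 libraries, and 51633 identifiers matched a symbol in GENCODE. Members, lists and tests were chosen with earlier results of these data known, and 5 of 35 lists, hepatocyte genes among them, were added after values were seen. CPM used TMM-scaled totals, and log2 CPM a prior count of 2. The fit was edgeR 4.0.16 in R 4.3.3 (robust quasi-likelihood, filterByExpr minimum count 10, 17 residual degrees of freedom). Limma 3.58.1 (voom), DESeq2 1.42.0, other splits, covariates and left-out libraries were alternatives. The scripts were tested on simulated counts.

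The titles pair metastases with primary tumours. The deviations of primary tumours and their metastases from group means correlated at 0.36, 0.10, -0.13, 0.23, -0.16 and 0.06 in sets 1 to 6, over 1000 genes.

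Genes were named by rule: the locus within 1 Mb, core pathway genes whatever their result, the 10 largest and 10 smallest-p changes each way at a mean log2 CPM of at least 2 outside the cell type lists, and 3 members of smallest p per list. A gene that the rule names is not reported here.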

Additional observations from a re-analysis of the deposited data

Results flagged for a closer look

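Among the 4 expressing primary tumours, 1 library stood apart from the other 3 for 7 named genes, by a gap to its nearest neighbour that passed Dixon's 95% limit. Of 61 named genes looked at, those under 5 CPM in all 4 of these tumours were skipped, so fewer than 61 were tested. Such a gap arises by chance in about 1 in 20 groups. Primary tumour 5 read 83.9 CPM of Myod1 (others 2.15 to 10.2), 17.9 of Tslp (3.85 to 5.09) and 16.1 of Mmrn1 (5.09 to 6.42). Primary tumour 1 read 26.6 CPM of Adh7 (10.3 to 12.99), 130.1 of Atf6 (100.5 to 104.6) and 203.7 of Stmn2 (93.3 to 97.8). Primary tumour 2 read 63.6 CPM of Myc (53.2 to 54.1).

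The difference between silent and expressing libraries differed between metastases and primary tumours for 3 of the core genes (edgeR interaction term): Cdkn2b by 2.57, Cdkn1a by 3.68 and Ccne1 by 2.85 log2 units. Metastasis 2-3 is the only silent metastasis in each.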

How the results depend on the processing

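The count of 571 rises and 558 falls moved with most settings. It was 2113 and 2002 with DESeq2, 566 and 1610 with voom, 726 and 1659 with voom and the set as a random block, 123 and 223 with counts summed per set, and 203 and 234 against a 1.5-fold change. With the matched set as a fixed replicate block, which follows the pairing in the titles, it was 273 and 315. Primary tumours alone gave 2164 and 3103, metastases alone 707 and 43, no tumour type covariate 1828 and 902, a split at 2 CPM 2861 and 3317, and Cdkn2a as a continuous term 3625 and 2667. Covariates gave 149 and 176 (lung epithelium), 361 and 654 (skeletal muscle), 166 and 164 (both), 1387 and 2205 (hepatocytes) and 350 and 88 (immune and endothelial). The hepatocyte and immune covariates and the next 3 settings were chosen after seeing the data. Without metastases 2-3 and 2-4 the counts were 2944 and 3507, without primary tumours 4 and 6 831 and 69, and without primary tumour 4 and genes on X and Y 475 and 156. Leaving out 1 silent library or 1 set gave 75 to 2961 rises and 86 to 3473 falls. Both lowest counts came without set 1, and both highest without metastasis 2-3.

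Among named genes past the threshold in the reported fit or in the alternative, the sign turned for 9. Genes past it in neither also changed sign, such as Neat1 (-1.003 to 1.44). Myod1 was at -8.12 in primary tumours alone. Mcm3 was at -0.47 in primary tumours alone, -0.40 with the split at 2 CPM, without metastasis 2-3 and without metastases 2-3 and 2-4. Leaving out 1 silent library or set gave it -0.43 to 2.56, the lowest without set 2. Hnf4a was at -2.17 with the split at 2 CPM and without metastases 2-3 and 2-4. Leaving out 1 silent library or set gave it -2.18 to 6.79, the lowest without metastasis 2-3. Areg was at -0.44 in metastases alone and -0.45 without primary tumours 4 and 6. With the immune and endothelial index, Fam110c was at -0.43, Elavl2 -0.44, Ndc80 -0.14, Cenpe -0.064 and Timp2 0.015. The causes were not tested. Of the other values of named genes, 2334 were classed as the same, 835 kept direction and lost the call, and 47 gained it. The same class holds calls kept in the same direction. It also holds values called in neither fit that lay within the SE of the reported one, whatever their sign. The other 144, called in neither fit, moved by the SE or more.

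With 3 silent libraries that differ from each other, the counts rest on which of them are included. The silent libraries hold 3, 25 and 89 counts of Cdkn2a, so depth did not limit the split.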

Other observations

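Chromosomes differed in how many of their genes were called. Of 644 tested genes on the X chromosome 9 rose (1.40%) and 35 fell (5.43%), against 2.86% and 2.79% over all genes. Chromosome 8 held 55 rises and 26 falls of 1056 tested genes, and chromosome 19 held 24 and 7 of 587. The silent libraries did not share a shift there. On chromosome 8 the median log2 ratio to the expressing median was 0.715 in metastasis 2-3, -0.909 in primary tumour 4 and 0.0860 in primary tumour 6. On chromosome 19 it was 0.246, -1.39 and -0.0656 in the same order. Median log2 ratios to the expressing median were furthest from 0 in primary tumour 4, at -1.90 over 463 expressed genes of chromosome 15, -1.44 on chromosome 17 and -1.39 on chromosome 19. The highest in that library was 0.638, on chromosome 13. Primary tumour 4 also had the lowest TMM factor, 0.750, against 0.901 to 1.16 in the other libraries. Its window medians ran from -3.08 on chromosome 15 to 1.84 on chromosome 13. Whether its chromosome medians reflect single chromosomes or the library as a whole was not tested.

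Further genes of the most stable group had all 3 silent libraries below all expressing ones. Bcl2l11, the gene of the cell death factor Bim, read 25.6, 18.7 and 38.2 CPM in primary tumour 4, primary tumour 6 and metastasis 2-3 against 41.0, 59.9 and 80.8 (log2 fold change -1.17, edgeR adjusted p 0.00981). Nfya, a subunit of the CCAAT-binding factor, read 22.6, 24.8 and 26.9 CPM against 32.1 to 64.5 (-1.02, adjusted p 0.00961). The basement membrane collagen genes Col4a5 and Col4a6, neighbours on the X chromosome, read 23.7, 41.0 and 20.9 CPM against 47.1 to 158, and 0, 1.25 and 1.85 against 8.71 to 68.7. The chromatin remodeller gene Smarca1, also on the X chromosome, read 0.456, 1.12 and 0.315 CPM against 1.5 to 18.98. These 5 were chosen after their values were seen.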
